A study of Mus musculus with 18 samples.

Results

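The genes that encode the receptors for GABA, glycine and glutamate, the fast transmitters of the nervous system, were followed in the vestibular organ of mice with and without Igf1 before birth and at 2 postnatal ages. Members were taken by symbol: subunits of the GABA-A, GABA rho, glycine, AMPA, kainate, NMDA and delta receptors and the metabotropic glutamate receptors. These were 43 of the 19938 genes tested, each read by 1 probe set, with Gabra6 outside the rule and other genes of these families not analysed here. Gabrb2 had 3 probe sets, of which the brightest was used, and every other member had 1. The 43 were 12 subunits of GABA-A receptors, 3 of rho receptors, 5 of glycine receptors, 16 of ionotropic glutamate receptors (4 AMPA, 5 kainate, 6 NMDA and 1 delta) and 7 metabotropic glutamate receptors.

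The samples were vestibular organs of Igf1 -/- mice, called null here, and of Igf1 +/+ mice, called wild type, late in embryonic life (E18.5) and at postnatal days 15 (P15) and 90 (P90). The description field of the P15 and P90 samples grouped here as wild type reads Igf1 -/-, against their title, source name and genotype field, which read Igf1 +/+ and were followed, so every genotype value at those ages and both wild-type age steps rest on the latter. Each of these 6 groups had 3 arrays, described as biological replicates, and all groups shared the Mf1 and 129/sv hybrid background. All mice had been perfused with paraformaldehyde before dissection, and the labels do not give the sex of the animals or whether an array holds 1 animal or a pool. The p-values therefore measure the spread between these arrays, and the small number of arrays limits the precision. Levels are log values of unstated base after quantile normalization, a step that gives every array the same distribution of values. If that base is e, a difference of 1 unit is 2.72-fold, and with base 2 it is 2-fold. Levels of different genes cannot be set against each other, because each probe set has its own brightness.

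GABA-A, rho and glycine receptors are chloride channels built of several subunits around a pore, and in the mature nervous system they mostly inhibit. AMPA, kainate and NMDA receptors are cation channels opened by glutamate, whereas metabotropic receptors signal through G proteins. Vestibular hair cells release glutamate onto the endings of vestibular ganglion neurons, and GABA and glycine act widely in the hindbrain to which those neurons project. Several of these receptors exchange subunits as neurons mature, such as Grin2b for Grin2a in NMDA receptors and Glra2 for Glra1 in glycine receptors.

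The arrays separated first by age, on a principal component with 63.6% of the variance. The third component, with 5.46%, set E18.5 null arrays 2 and 3 and P90 wild-type arrays 1 and 2 together, although they differ in age and genotype. The mean level of Igf1 itself, null before wild type, was 6.59 against 7.03 before birth, 5.55 against 5.96 at P15, and 5.42 against 5.52 in the P90 arrays. The 3 null arrays lay below the wild-type arrays at E18.5 and P15 and overlapped them at P90, and none of these differences passed (adjusted p = 0.16, 0.476 and 0.761). Whether the probes lie within the deletion is not stated, so Igf1 does not check the labels or settle that conflict. At P90, Xist, the RNA of the inactive X chromosome, was at 1.86 to 3.33 in wild type and 7.42 to 7.91 in null. Y-linked genes averaged 6.12 to 6.32 in wild type and 2.00, 5.44 and 5.49 in null, so these sex-linked transcripts moved with genotype at that age. Xist also moved with the wild-type step from P15, where it was at 5.34 to 7.48. In the E18.5 arrays Xist was at 7.31 to 8.01 and Y-linked genes averaged 5.23 to 5.95. At P15, Xist and the mean of Y-linked genes were 7.61 and 5.69 in null 1, 8.09 and 3.29 in null 2, and 4.09 and 6.31 in null 3. In P15 wild type 1, 2 and 3 they were 7.48 and 5.56, 5.34 and 6.19, and 7.48 and 5.9. These transcripts thus also varied within the P15 groups. Each E18.5 array, P15 null 1, P15 wild type 1 and 3, and P90 null 2 and 3 held RNA typical of both sexes. Whether they were pools was not tested. Of 12 hair cell markers, 3 lay below 3.39 in P15 wild type (Pou4f3, Chrna9 and Cdh23) and 0 in E18.5 wild type. That level is a rough guide to dim signal, the highest value of a Y-linked gene in the 2 arrays where those genes were lowest. From the lowest array alone, P90 null 1, it would be 2.185, so the guide depends on 1 array, P15 null 2. Among the receptor genes, 7 stayed below 3.39 in every group mean: Gabra5, Gabrq, Gabrr3, Glra1, Glra4, Grin3b and Grm6. Of all genes 19.8% did. Below 2.185 were 0 of the 43 and 5.12% of all genes.

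**Figure D1:**
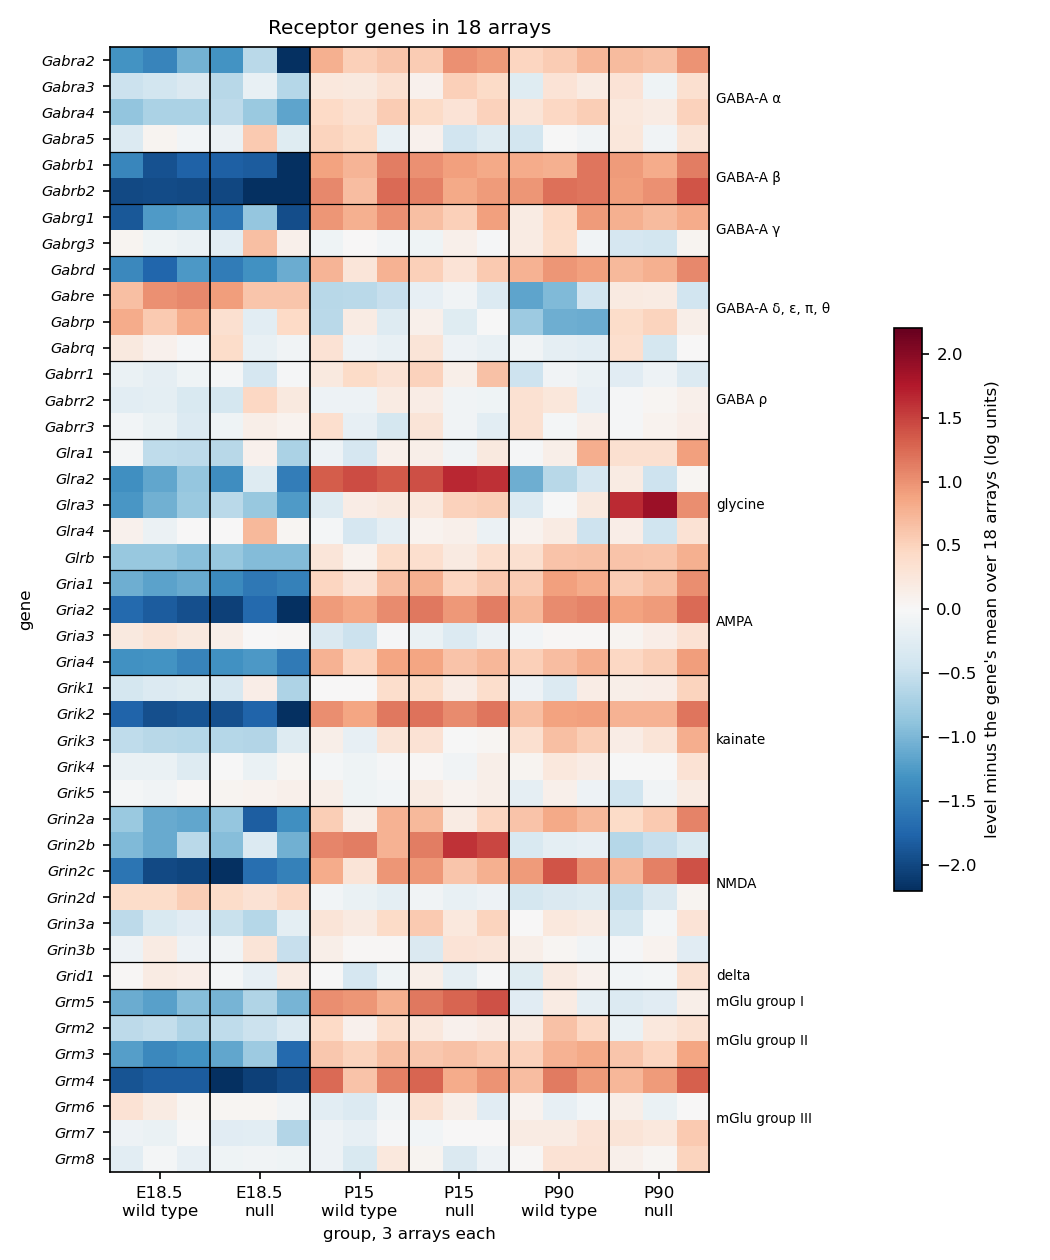
Level of the 43 receptor genes in the 18 arrays, as the difference from each gene's mean over all arrays in log units; columns are arrays in 6 groups of 3, rows are genes ordered by receptor family, and values beyond the ends of the scale take the end colour. Most rows change colour between E18.5 and P15, in both genotypes, and Glra3 and Gabrp differ between the genotypes at P90.

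Between E18.5 and P15, most receptor genes rose in wild type. Of the 43, 24 rose and 5 fell (55.8% and 11.6%), where over all genes 19.7% rose and 21.9% fell, 41.5% in either direction. The median difference was 0.67 over the receptor genes and -0.05 over all genes. With the values as deposited, 26 rose and 2 fell. The median of all genes moved to 0.11 with the values as deposited and to -0.18 with array medians subtracted, so each change is relative to the scaling. Several rises began from E18.5 wild-type means below the guide for dim signal, among them Gabrg1 (2.27), Glra2 (2.63), Gabrb1 (2.82) and Grin2c (3.23). Those of Gabrd (3.29) and Grin2b (3.32) lay just below it. These are bulk samples, in which more cells of a type and more RNA per cell cannot be told apart.

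Subunits of the common GABA-A receptors were among the genes that rose most. Gabrb2, a beta subunit that contributes to the GABA binding site, read 4.56, 4.59 and 4.57 in the E18.5 wild-type arrays and 7.60, 7.23 and 7.79 in the P15 arrays. Gabrb1, a related beta subunit, read 3.09, 2.62 and 2.75 and then 5.41, 5.29 and 5.66. All P15 arrays lay above all E18.5 arrays for both genes, by 2.97 ± 0.14 (SE of the limma fit; adjusted p = 7.93e-10) and 2.63 ± 0.17 (adjusted p = 1.19e-08). The mean of the 3 Gabrb2 probe sets rose by 3.12. Of the 4 alpha subunits, 3 rose, Gabra2 by 1.91 ± 0.35, Gabra4 by 1.20 ± 0.13 and Gabra3 by 0.66 ± 0.16, whereas Gabra5 had a difference of 0.36 ± 0.22 (adjusted p = 0.217) at levels below the guide for dim signal. Gabrg1, a gamma subunit, rose by 2.34 ± 0.25, and Gabrd, the delta subunit of receptors outside synapses, by 2.07 ± 0.16. The other gamma subunit, Gabrg3, stayed between 3.30 and 3.49 in the 6 arrays, with a difference of 0.01 ± 0.18 (adjusted p = 0.962).

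The epsilon and pi subunits went the other way. Gabre, the epsilon subunit, read 4.27, 4.62 and 4.68 at E18.5 and 3.01, 3.02 and 3.11 at P15 in wild type. Gabrp, the pi subunit, which is known mainly from epithelia outside the nervous system, read 4.99, 4.74 and 4.98 and then 3.57, 4.35 and 3.89. No P15 array reached an E18.5 array for either gene, and Gabre fell by 1.47 (SE 0.19, adjusted p = 1.07e-05) and Gabrp by 0.97 (SE 0.20, adjusted p = 0.000933). The theta subunit Gabrq had a difference of -0.08 ± 0.19 (adjusted p = 0.774). Among the rho subunits, best known from retinal bipolar cells, Gabrr1 rose by 0.46 ± 0.13 (adjusted p = 0.00999), and Gabrr2 (0.24 ± 0.18) and Gabrr3 (0.11 ± 0.17) did not pass.

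In the glycine receptor family, 3 of 5 subunits rose. Glra2, the alpha subunit of the fetal receptor, read 2.39, 2.60 and 2.89 at E18.5 and 5.07, 5.18 and 5.09 at P15, a rise of 2.49 ± 0.27 (adjusted p = 2.07e-06). Glrb, the beta subunit that anchors the receptor at synapses, rose by 1.11 ± 0.10 (adjusted p = 2.82e-07) and Glra3 by 1.09 ± 0.22 (adjusted p = 0.00094), the latter with group means below the guide for dim signal at both ages. Glra1, the alpha subunit of the adult receptor, was dim throughout and had a difference of 0.26 ± 0.25 (adjusted p = 0.424).

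Of the 4 AMPA receptor genes 3 rose and 1 fell, and of the 5 kainate receptor genes 2 rose. Gria2, the AMPA subunit that limits calcium entry, read 4.74, 4.62 and 4.52 at E18.5 and 7.37, 7.30 and 7.48 at P15. Grik2, a principal kainate receptor subunit, read 4.57, 4.40 and 4.43 and then 7.36, 7.20 and 7.50. The ages did not overlap for either gene, with rises of 2.76 ± 0.19 (adjusted p = 2.54e-08) and 2.89 ± 0.14 (adjusted p = 7.91e-10). Gria4 rose by 2.07 ± 0.13 and Gria1 by 1.61 ± 0.13. Gria3 was at 6.93, 6.99 and 6.93 before birth and at 6.40, 6.24 and 6.69 at P15, and fell by 0.51 (SE 0.10, adjusted p = 0.000659). With the values as deposited its difference was -0.38 and no longer passed. Grik3 rose by 0.67 ± 0.16 (adjusted p = 0.00322), whereas Grik1 (0.44 ± 0.18, adjusted p = 0.0609) and the high-affinity subunits Grik4 (0.13 ± 0.09) and Grik5 (0.03 ± 0.12) did not pass.

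Of the 6 NMDA receptor subunits, 4 rose and 1 fell. Grin2c, a subunit of mature cerebellar granule cells, had the largest rise of the family, 2.56 ± 0.22 (adjusted p = 2.1e-07), followed by Grin2b (1.88 ± 0.19), Grin2a (1.50 ± 0.23) and Grin3a (0.69 ± 0.16). Grin2d, which is prominent in the embryonic brain, read 4.88, 4.88 and 5.02 at E18.5 and 4.42, 4.32 and 4.27 at P15, with no overlap. It fell by 0.59 (SE 0.11, adjusted p = 0.000473), and with the values as deposited its difference was -0.40 and did not pass. Grin3b was dim, and Grid1, the delta receptor measured here, had a difference of -0.27 ± 0.15 (adjusted p = 0.16).

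Of the 7 metabotropic receptors, 4 rose and 1 fell. Grm4, a presynaptic group III receptor, read 3.53, 3.62 and 3.62 at E18.5 and 6.69, 6.07 and 6.56 at P15, a rise of 2.85 ± 0.18 (adjusted p = 7.33e-09). Grm5, a group I receptor that couples to phospholipase C, rose by 2.00 ± 0.14, and the group II receptors Grm3 and Grm2 by 1.91 ± 0.17 and 0.90 ± 0.13. Grm6, known from retinal bipolar cells, was dim at 3.37, 3.23 and 3.09 and then 2.82, 2.75 and 2.97. Its fall of 0.38 (SE 0.13, adjusted p = 0.0264) did not pass with the values as deposited (-0.28, adjusted p = 0.35), with an intensity trend and robust prior (0.054), without E18.5 wild type 1 (0.109) or 2 (0.0601), or without P15 wild type 1 (0.0698) or 2 (0.0895). Grm7 (-0.02 ± 0.11) and Grm8 (0.07 ± 0.15) did not pass.

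**Figure D2:**
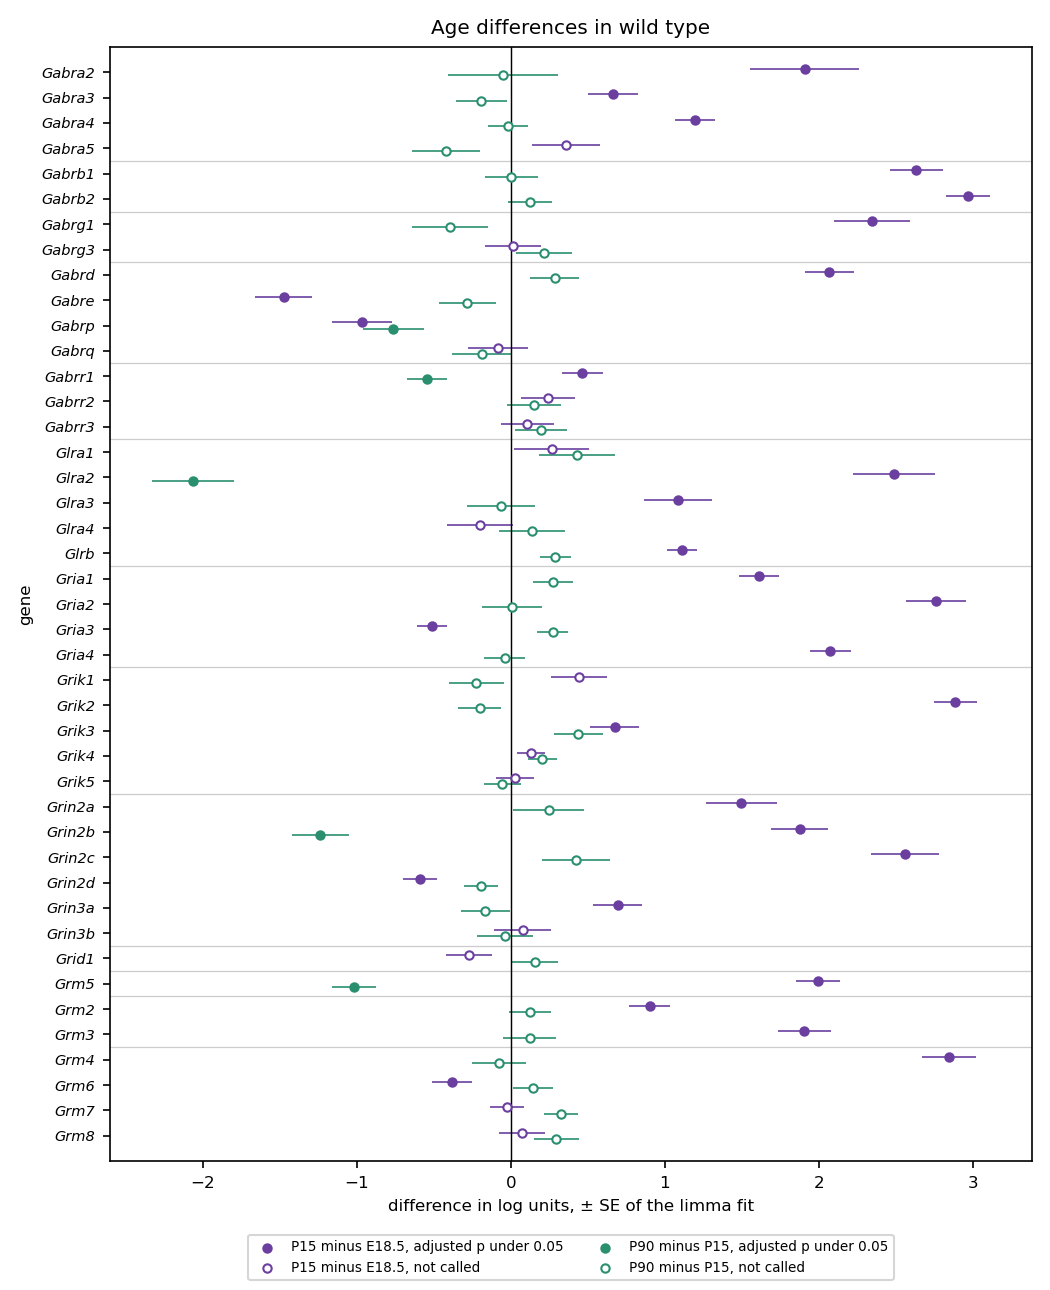
Age differences of the 43 receptor genes in wild type, in log units with bars of 1 SE from the limma fit; filled points passed at an adjusted p under 0.05. From E18.5 to P15 the filled points run from -1.47 (Gabre) to 2.97 (Gabrb2), and from P15 to P90 the 5 filled points are all below 0.

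In null, most receptor genes rose at this step as well. Of the 43, 26 rose and 2 fell in null (60.5% and 4.65%), where over all genes 20.3% rose and 20.5% fell, 40.8% in all. All 24 genes that rose in wild type rose in null too, where 80.8% of all genes that rose in wild type did. Grik1 (0.61 ± 0.18) and Grm7 (0.35 ± 0.11) also passed in null. Of all genes that fell in wild type, 69.4% fell in null too, against 40% of the receptor genes. Gabre and Grin2d fell in both genotypes, by 0.90 and 0.51 in null, and with the values as deposited the null difference of Grin2d was -0.20 (adjusted p = 0.348). The 3 genes that fell in wild type alone at the threshold had null differences of -0.24 ± 0.20 (Gabrp, adjusted p = 0.361), -0.24 ± 0.10 (Gria3, adjusted p = 0.0638) and 0.07 ± 0.13 (Grm6, adjusted p = 0.717). When the 3 genotype differences of a gene were tested for being equal (limma's F-test), the adjusted p was 0.0314 for Gabrp, 0.353 for Gria3, 0.395 for Grm6, 0.728 for Grik1 and 0.3 for Grm7.

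Markers of central neurons moved with these receptor genes. All 13 measured markers of cerebellar and other central neurons rose in wild type between E18.5 and P15, with a median difference of 2.36, and their summed level was 55.5 to 57.2 in the E18.5 arrays and 87.9 to 91.1 in the P15 arrays. Neurod1, a transcription factor of cerebellar granule cells, rose by 5.98, from a mean of 2.06 that lies below the guide for dim signal, and Pax6 was also below it at E18.5. Among 10 markers of central glia, 9 rose and 1 fell, with summed levels of 34.8 to 35.4 and then 50.1 to 52.1. Of these 10, 7 lay below the guide for dim signal in E18.5 wild type. Vestibular ganglion neuron markers rose in 11 of 14 and fell in 1, with summed levels of 64.9 to 66.6 and then 82.4 to 85.2. Hair cell markers fell in 7 of 12 and rose in 0 (summed level 49.2 to 51.2 and then 42.1 to 45.3). Supporting cell markers fell in 6 of 9 and rose in 0, melanocyte markers fell in 5 of 6, those of Schwann and satellite glia in 3 of 6 with 1 rise, and skeletal muscle markers rose in 6 of 10 and fell in 1. In null, skeletal muscle markers went the other way, with 2 rises and 7 falls of 10 (median difference -0.90), whereas all 13 central neuron markers, 9 of 10 central glia markers and 10 of 14 ganglion neuron markers rose, and 8 of 12 hair cell and 7 of 9 supporting cell markers fell. What part these cell types had in the rise of the receptor genes was not tested.

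Most of the measured genes that make, move and anchor the same transmitters rose in this step too. Of 19 measured genes of GABA and glycine synthesis, transport and anchoring, 15 rose and 1 fell in wild type, with a median difference of 0.86. Slc12a5, the neuronal chloride exporter that makes these receptors inhibitory, rose by 2.49 ± 0.14 and Gabbr2, a subunit of the metabotropic GABA-B receptor, by 2.47 ± 0.22. Gabarap, a trafficking protein, fell by 0.27 (SE 0.11, adjusted p = 0.0495). Of 41 measured genes of glutamate transport, scaffolds and auxiliary subunits, 26 rose and 3 fell, with a median of 0.58. Cbln1, the cerebellin that bridges granule cell axons to delta receptors, rose by 4.13 ± 0.20, and Slc17a7, a vesicular glutamate transporter of central neurons, by 3.19 ± 0.21. The largest falls were those of Cbln2, by 1.38 (SE 0.16), and of the AMPA receptor scaffold Grip1, by 1.07 (SE 0.09). Slc17a8, the vesicular glutamate transporter of hair cells, fell by 0.87 (SE 0.10, adjusted p = 3.34e-06).

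Promoters of 3 genes that rose at this step are shown because the genes belong to different families and their starts differ in base composition. Each run holds the 250 bases before the gene's start in RefSeq's annotation of GRCm38.p6, written 5′ to 3′ in the direction of transcription. Capitals mark matches on either strand to any of 6 motifs. The TATA box was searched as TATAAA, which can place the start of transcription. The CCAAT box was searched by those letters, and the GC box, bound by Sp1, as GGGCGG. For the E-box the letters were CACGTG, and for the cyclic AMP response element, bound by Creb1, they were TGACGTCA. The left part of the RE1 element, bound by REST in cells other than neurons, was searched as TTCAGCACC, and none of these motifs holds another.
Grik2, chr10:49788755-49789004, minus strand: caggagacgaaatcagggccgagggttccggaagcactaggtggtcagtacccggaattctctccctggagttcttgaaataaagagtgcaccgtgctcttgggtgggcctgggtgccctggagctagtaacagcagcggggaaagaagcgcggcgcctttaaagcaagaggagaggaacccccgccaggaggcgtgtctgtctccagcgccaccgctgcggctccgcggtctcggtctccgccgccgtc
Grin2c, chr11:115267244-115267493, minus strand: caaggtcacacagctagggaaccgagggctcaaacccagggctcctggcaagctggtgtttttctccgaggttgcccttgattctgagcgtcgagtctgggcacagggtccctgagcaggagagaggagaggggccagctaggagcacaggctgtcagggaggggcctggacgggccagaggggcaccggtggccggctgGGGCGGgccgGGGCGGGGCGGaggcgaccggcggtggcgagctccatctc
Glra2, chrX:165327394-165327643, minus strand: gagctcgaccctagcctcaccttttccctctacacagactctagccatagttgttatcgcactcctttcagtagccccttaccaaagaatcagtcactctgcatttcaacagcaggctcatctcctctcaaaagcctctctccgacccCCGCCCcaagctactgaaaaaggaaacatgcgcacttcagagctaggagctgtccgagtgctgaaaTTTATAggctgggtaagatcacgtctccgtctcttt
The Grik2 window had 20 CpG sites and no match, that of Grin2c had 15 CpG sites and GC boxes, and that of Glra2 had 8 CpG sites. The Glra2 window also had a GC box and a TATAAA match on the strand opposite to transcription, printed as TTTATA. RefSeq windows were found for 32 of the 43 genes, 39 windows in all, with a median of 8 CpG sites against 6 in all 32851 windows. GC boxes occurred in 48.7% of the receptor gene windows and 32.7% of all windows, CCAAT in 43.6% and 33.8%, and TATAAA in 12.8% and 12.4%. The E-box and the cyclic AMP response element occurred in 0 of the 39 windows (6.02% and 1.55% of all), and the RE1 part in 1, that of Grm2 (0.301% of all). A match describes these letters only, and no binding was measured.

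Between P15 and P90 fewer receptor genes passed in wild type than in the step before, and the share that fell was near that of all genes. In wild type, 0 of the 43 rose and 5 fell at this step (11.6%), where over all genes 8.08% rose and 9.78% fell, 17.9% in all. The split depended on the scaling: 9 rose and 3 fell with the values as deposited, and 2 rose and 6 fell with array medians subtracted. Without P15 wild type 2 the 5 calls became 3, and without P90 null 3 they became 8. In null, 4 rose and 4 fell (background 13%, of which 6.12% higher and 6.83% lower), 14 and 3 with the values as deposited and 1 and 6 with array medians subtracted, and without P15 null 2 the 8 calls became 5. The median of all genes moved by 0.20 in wild type and 0.39 in null with the values as deposited.

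Glra2 and Grin2b, the forms known from young neurons, fell in both genotypes. Glra2 went from 5.07, 5.18 and 5.09 at P15 to 2.66, 3.12 and 3.37 at P90 in wild type, and Grin2b from 5.29, 5.33 and 4.97 to 3.87, 3.99 and 4.02. Grm5, the group I metabotropic receptor, went from 5.82, 5.76 and 5.57 to 4.55, 4.97 and 4.59. No P90 array reached a P15 array for any of these genes, so P15 was the highest of the 3 ages. The differences in wild type were -2.06 ± 0.27 (adjusted p = 0.000294) for Glra2, -1.24 ± 0.19 (adjusted p = 0.000774) for Grin2b and -1.02 ± 0.14 (adjusted p = 0.000473) for Grm5. In null they were -1.64 ± 0.27, -1.89 ± 0.19 and -1.42 ± 0.14, with adjusted p of 0.00117, 2.6e-05 and 2.84e-05.

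Grin2a and Grin2c, the subunits of mature NMDA receptors, did not pass between P15 and P90, with wild-type differences of 0.25 ± 0.23 (adjusted p = 0.483) and 0.42 ± 0.22 (adjusted p = 0.194). Glrb had a difference of 0.29 ± 0.10 in wild type (adjusted p = 0.0536) and rose by 0.36 ± 0.10 in null (adjusted p = 0.0251). Glra1 had a difference of 0.43 ± 0.25 in wild type (adjusted p = 0.235) and remained dim.

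**Figure D3:**
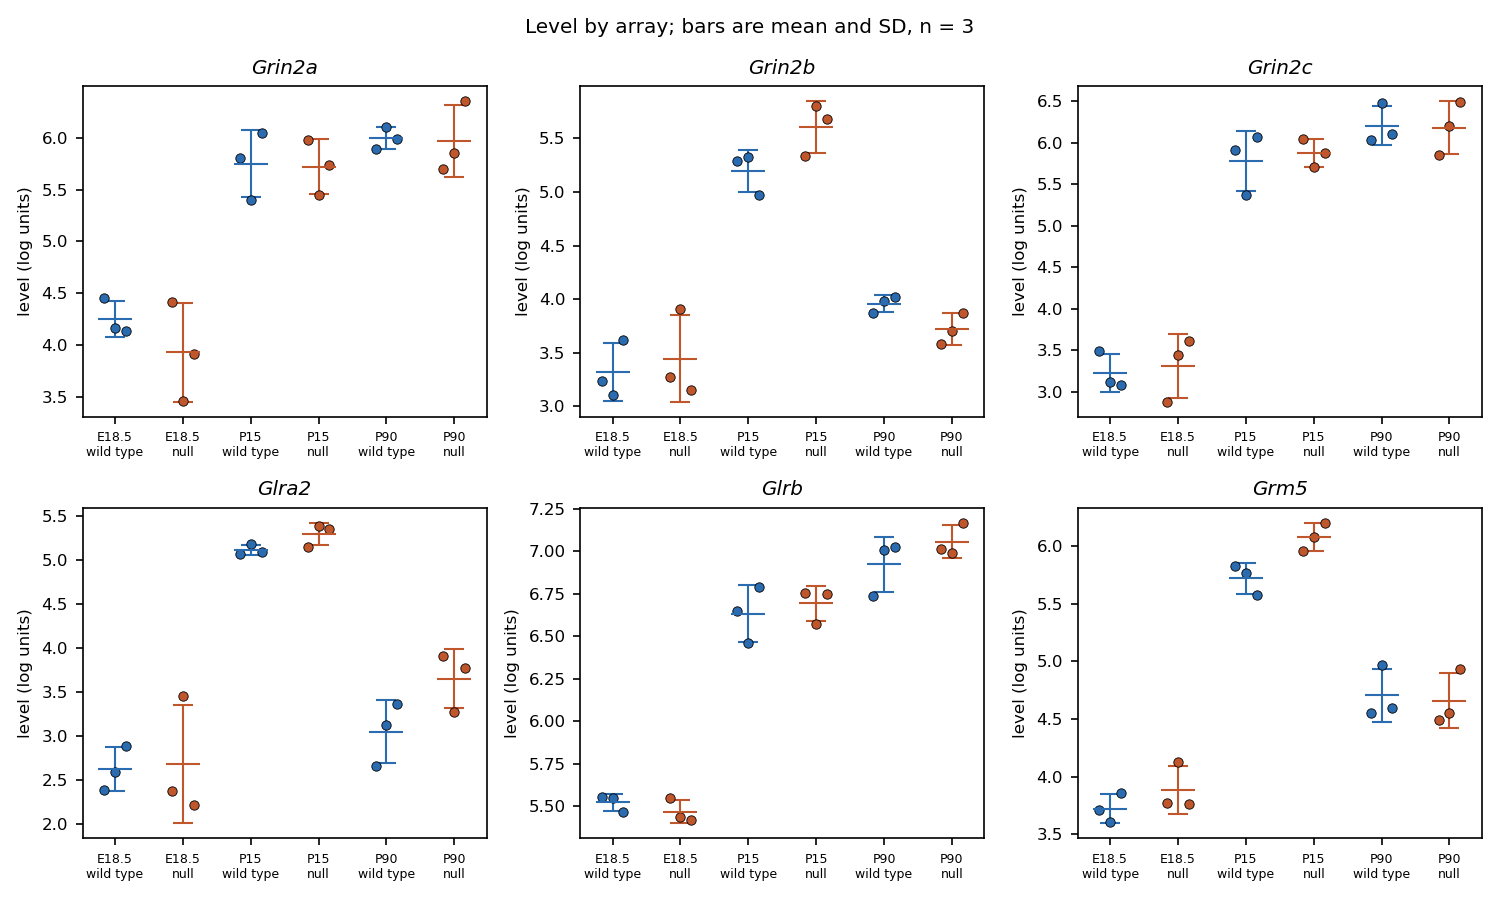
Levels of 3 NMDA receptor subunits, the glycine receptor subunits Glra2 and Glrb and the metabotropic receptor Grm5 in each array, in log units, with mean and SD (n = 3) for each genotype and age. Grin2b, Glra2 and Grm5 are highest at P15, whereas Grin2a, Grin2c and Glrb are high at both P15 and P90.

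The remaining calls of this step were smaller. Gabrr1 read 3.18, 3.39 and 3.29 at P15 and 2.52, 2.89 and 2.81 at P90 in wild type, without overlap. It fell by 0.54 (SE 0.13, adjusted p = 0.0128) in wild type and 0.65 in null, but its difference was -0.01 in wild type and -0.06 in null with the values as deposited. The wild-type call also ended with array medians subtracted (-0.29, adjusted p = 0.111), with a term for the 4 arrays of the third component (0.118) and without P15 wild type 2 (0.0632) or P90 wild type 1 (0.0564). Gabrp went from 3.57, 4.35 and 3.89 to 3.36, 3.10 and 3.07 in wild type, a fall of 0.76 (SE 0.20, adjusted p = 0.0177). That call was lost without P15 wild type 2 (0.0946), without P90 wild type 2 (0.0707), with the values as deposited (-0.32, 0.268), with a sex score as a covariate (0.0637) and with a term for the 4 arrays of the third component (0.106), all adjusted p of limma. In null Gabrp had a difference of 0.39 ± 0.20 (adjusted p = 0.23).

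The null arrays also had 4 rises at this step. Glra3 went from 2.22, 2.50 and 2.52 at P15 to 3.62, 3.86 and 3.00 at P90, a rise of 1.08 ± 0.22 (adjusted p = 0.00522), whereas its wild-type difference was -0.06 ± 0.22 (adjusted p = 0.869). Grm7 rose by 0.38 ± 0.11 (adjusted p = 0.0349), Gria3 by 0.37 ± 0.10 (adjusted p = 0.0243) and Glrb by the value given above. These 3 calls were lost without P15 null 2 (adjusted p = 0.0907, 0.113 and 0.121) or without P90 null 3 (0.143, 0.0963 and 0.0923). With array medians subtracted they were lost as well, at 0.30 for Grm7 (adjusted p = 0.091), 0.14 for Gria3 (0.479) and 0.11 for Glrb (0.562). That of Grm7 was lost also with a sex score (0.0625), with the replicate number as a block (0.0735) and without P15 null 1 (0.0885), P15 null 3 (0.0845) or P90 null 1 (0.0524), and that of Glrb without P15 null 3 (0.0533). In wild type Grm7 and Gria3 had differences of 0.33 ± 0.11 and 0.27 ± 0.10 (adjusted p = 0.0513 and 0.0705).

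Related genes passed between P15 and P90 in wild type at shares near or below those of all genes (8.08% higher and 9.78% lower). Gad1, which makes GABA from glutamate, was the only one of 19 in the GABA and glycine list to pass, and rose by 0.42 ± 0.14 (adjusted p = 0.0482). In the glutamate list 3 of 41 rose, among them Shank2, a postsynaptic scaffold, by 0.89 ± 0.24 (adjusted p = 0.0206) and Dlg1, also a scaffold, by 0.33 ± 0.09 (adjusted p = 0.0223), and 4 fell. Slc17a6, a vesicular glutamate transporter of developing neurons, fell by 1.20 (SE 0.38, adjusted p = 0.0426), and Lrrtm1, an organizer of synapses, fell by 1.07 (SE 0.21, adjusted p = 0.00452). Of the marker lists, skeletal muscle had 5 rises of 10 at this step in wild type and 9 in null, and the list of mucosal and secretory epithelium, chosen after values were seen, 2 rises of 16 and 6, and their part in the receptor gene values was not tested.

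Between the genotypes, few receptor genes passed at any age. Over the mean of the 3 ages 0 of 43 passed (background 0.0351% of all genes), with 3 at an unadjusted p of limma under 0.05 (Glra3, Gabre and Gabrp), where 7.68% of all genes had one. The mean difference was 0.70 ± 0.13 for Glra3 (adjusted p = 0.0592), 0.34 ± 0.11 for Gabre (adjusted p = 0.323) and 0.32 ± 0.11 for Gabrp (adjusted p = 0.431). The negative mean differences with the smallest p were those of Grm2 (-0.10 ± 0.08), Gria1 (-0.08 ± 0.08) and Gabra4 (-0.08 ± 0.08, adjusted p = 0.927). Glra3 passed over the mean of the ages without P90 null 3 (0.78, adjusted p = 0.0182) and under 4 other settings, with values of 0.70 to 0.82.

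At E18.5, 0 of 43 receptor genes passed between the genotypes (background 0.0802%), and 3 had an unadjusted p under 0.05, where 12.5% of all genes did. The 3 null arrays lay apart from the 3 wild-type arrays for 7 genes (16.3%), 6 lower and 1 higher, against 19.7% of all genes (11.7% lower and 7.95% higher). Gria1, an AMPA receptor subunit, read 4.97, 4.80 and 4.89 in null and 5.30, 5.20 and 5.27 in wild type, a difference of -0.37 ± 0.13 (adjusted p = 0.284). Gabrp read 4.52, 3.93 and 4.61 in null and 4.99, 4.74 and 4.98 in wild type, with a difference of -0.55 ± 0.20 (adjusted p = 0.291). Grm7, a presynaptic metabotropic receptor, read 4.37, 4.39 and 3.97 and 4.51, 4.47 and 4.60, with a difference of -0.29 ± 0.11 (adjusted p = 0.322). In each of these 3 genes the null arrays were the lower ones without overlap, but the difference of Gabrp was -0.34 without null 2 and that of Grm7 -0.15 without null 3. Skeletal muscle markers had positive differences in 10 of 10 in the same comparison, with summed levels of 66.3 to 71.1 in null and 58.7 to 63.5 in wild type, of which Actn3 (1.03) and Mylpf (0.85) passed, and their part in these values was not tested.

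Of the 3 positive differences with the smallest p at E18.5, those of Gabrr2 and Gabrg3 were largest in array 2 of null. Gabrr2 read 2.97, 3.81 and 3.57 in null and 3.12, 3.13 and 3.02 in wild type, a difference of 0.36 ± 0.18 (adjusted p = 0.418). Gabrg3 read 3.20, 4.10 and 3.54 and 3.49, 3.34 and 3.30, a difference of 0.24 ± 0.18 (adjusted p = 0.585). That array was the highest of the 6 for both, and without it the differences were 0.18 for Gabrr2 and -0.0020 for Gabrg3. With a term for the 4 arrays of the third component they were -0.04 and -0.09. Grik4 read 4.32, 4.18 and 4.36 and 4.16, 4.18 and 4.04, a difference of 0.16 ± 0.09 (adjusted p = 0.487).

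At P15, 0 of 43 passed (background 0.015%) and 2 had an unadjusted p under 0.05, where 6.97% of all genes did. The null arrays lay above wild type without overlap for 4 genes and below for 0 (9.3%, against 16.5% of all genes, 8.75% above and 7.75% below). Grm5 read 5.96, 6.08 and 6.20 in null and 5.82, 5.76 and 5.57 in wild type, a difference of 0.36 ± 0.14 (adjusted p = 0.612). Grin2b read 5.34, 5.80 and 5.68 and 5.29, 5.33 and 4.97, a difference of 0.41 ± 0.19 (adjusted p = 0.692). Gabre read 3.43, 3.55 and 3.32 and 3.01, 3.02 and 3.11, a difference of 0.39 ± 0.19 (adjusted p = 0.716). Every null array was above every wild-type array in these 3 genes and in Glra3.

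The negative differences at P15 overlapped between the genotypes. Gabra5 read 3.07, 2.55 and 2.69 in null and 3.47, 3.40 and 2.82 in wild type, a difference of -0.46 ± 0.22 (adjusted p = 0.716) at dim levels. For Grm2 the arrays read 4.32, 4.17 and 4.25 and 4.52, 4.19 and 4.47 (-0.14 ± 0.13), and for Gabrg1 4.36, 4.23 and 4.60 and 4.67, 4.48 and 4.70 (-0.22 ± 0.25), with adjusted p of 0.924 and 0.949. Skeletal muscle markers, higher in null at E18.5, were lower in null at P15 in 10 of 10, with summed levels of 59.8 to 64.1 in null and 67.6 to 69.2 in wild type, without overlap. Their median difference was -0.64, and 0 passed, with 7 at an unadjusted p of limma under 0.05, where 6.97% of all genes had one. Melanocyte markers were higher in null in 6 of 6, with sums of 24.6 to 25.4 and 22.8 to 24.4. Central glia markers had positive differences in 2 of 10 (median -0.165), and 0 passed. Their sums did not overlap, at 48.92 to 49.45 in null and 50.11 to 52.1 in wild type. Markers of cerebellar and central neurons had positive differences in 10 of 13, with overlapping sums and 0 called. What part these cells had in the receptor gene values was not tested.

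**Figure D4:**
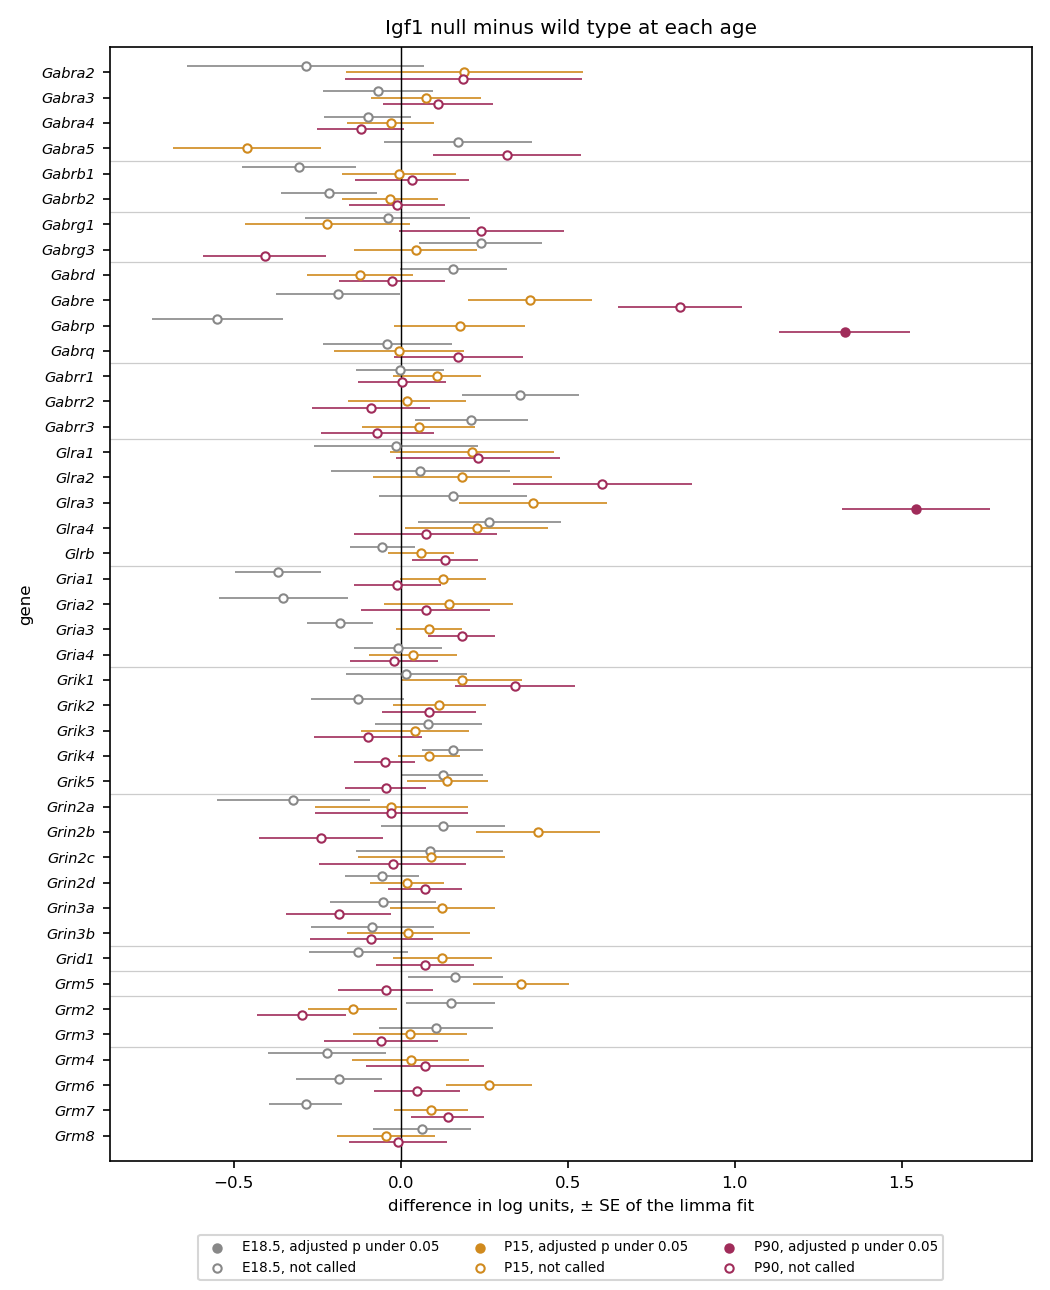
Difference between Igf1 null and wild type for the 43 receptor genes at E18.5, P15 and P90, in log units with bars of 1 SE from the limma fit. Filled points, which passed at an adjusted p under 0.05, are those of Glra3 (1.54) and Gabrp (1.33) at P90, and the other points are open.

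At P90 Glra3 and Gabrp were higher in the null vestibular organ. These were 2 of 43 receptor genes called higher, with 0 lower (4.65%), where 0.241% of all genes were called higher, 0.0552% lower and 0.296% in either direction. An unadjusted p of limma under 0.05 was found for 6 of the 43 and for 11.1% of all genes. The null arrays lay apart from wild type for 4 genes, all higher (9.3%), namely Glra3, Gabrp, Gabre and Gria3, against 10.5% of all genes, 6.42% higher and 4.06% lower. Glycine receptor subunits had positive differences in 5 of 5, of which only Glra3 passed, and AMPA, kainate and NMDA receptor subunits had 0 calls.

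Glra3 encodes an alpha subunit of the glycine receptor that is known from the dorsal spinal cord, brainstem and retina. It read 3.62, 3.86 and 3.00 in the P90 null arrays and 1.69, 1.98 and 2.19 in the wild-type arrays. All null arrays were above all wild-type arrays, with means of 3.49 ± 0.45 and 1.95 ± 0.25 (SD, n = 3). The difference was 1.54 ± 0.22 (adjusted p = 0.00926). Its wild-type mean lay below the guide for dim signal and its null mean just above it. At E18.5 and P15 the differences were 0.16 ± 0.22 and 0.40 ± 0.22 (adjusted p = 0.778 and 0.804), and the test that the 3 differences are equal gave an adjusted p of 0.113.

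Gabrp, the pi subunit, read 4.57, 4.66 and 4.29 in the P90 null arrays and 3.36, 3.10 and 3.07 in wild type. Again no null array overlapped a wild-type array, and the means were 4.51 ± 0.19 and 3.18 ± 0.16. The wild-type mean lay below the guide for dim signal. The difference was 1.33 ± 0.20 (adjusted p = 0.0109). It ran from -0.55 ± 0.20 at E18.5 through 0.18 ± 0.20 at P15 to this value, and Gabrp was the 1 receptor gene whose genotype difference was called unequal across the ages (adjusted p = 0.0314; background 0.256% of all genes, with 5 of 43 at an unadjusted p under 0.05 against 14.5%). In wild type Gabrp fell at each step, while the null arrays read 4.52, 3.93 and 4.61 at E18.5 and 4.28, 3.90 and 4.16 at P15.

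Gabre, the epsilon subunit, whose gene lies on the X chromosome, read 3.81, 3.80 and 3.20 in null and 2.46, 2.65 and 3.19 in wild type at P90. The groups did not overlap, although null 3 and wild type 3 nearly met. The wild-type mean of 2.77 lay below the guide for dim signal. Its difference of 0.84 ± 0.19 missed the threshold (adjusted p = 0.0758) and passed with the values as deposited (1.01, adjusted p = 0.0481), with array medians subtracted (0.88, 0.0469) and with array weights (1.07, 0.00636). It also passed without P90 null 3 (0.018) and without P90 wild type 3 (0.013). It was smaller with a sex score (0.67), with a term for the 4 arrays of the third component (0.52, adjusted p = 0.735) and without those arrays (0.41), and without P90 wild type 1 it was 0.68. The differences with the smallest p in the negative direction overlapped between groups, in Gabrg3 (3.06, 3.04 and 3.49 in null, 3.61, 3.84 and 3.37 in wild type) and in Grin2b (3.58, 3.71 and 3.87 and 3.87, 3.99 and 4.02). Grm2 read 3.93, 4.31 and 4.42 in null and 4.29, 4.72 and 4.54 in wild type. The 3 differences were -0.41 ± 0.18, -0.24 ± 0.19 and -0.30 ± 0.13, with adjusted p of 0.434, 0.65 and 0.434.

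**Figure D5:**
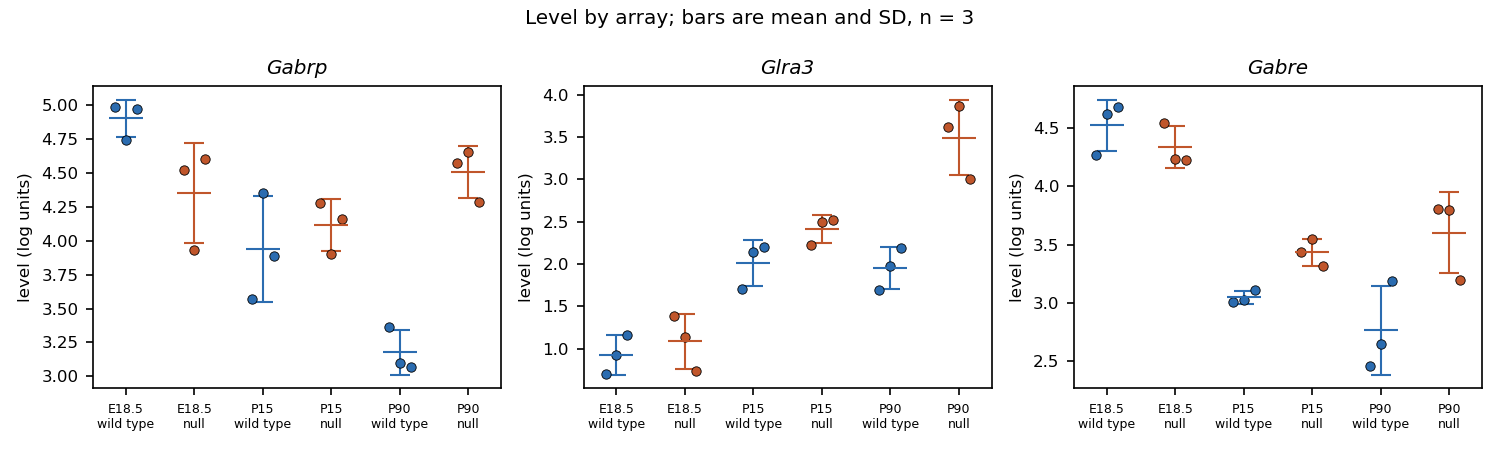
Levels of Gabrp, Glra3 and Gabre in each array, in log units, with mean and SD (n = 3) for each genotype and age. At P90 the 3 null arrays lie above the 3 wild-type arrays in each gene, and in wild type Gabrp and Gabre are highest at E18.5.

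The P90 calls moved with other differences between the same arrays. With a sex score, Xist minus the mean of Y-linked genes, as a covariate the differences were 1.59 for Glra3 (adjusted p = 0.678) and 1.54 for Gabrp (adjusted p = 0.469). Xist and genotype coincide at this age, so sex and the loss of Igf1 cannot be told apart there. With a term for the 4 arrays of the third component, which include P90 wild type 1 and 2, they were 1.28 and 1.30 (adjusted p = 0.139 for both), and in a fit of only the P90 arrays the adjusted p of Glra3 was 0.16. Without P90 null 1 the adjusted p was 0.0513 for Glra3 and 0.0564 for Gabrp, which left 0 calls, and without P90 wild type 2 it was 0.0586 for Gabrp, which left 1.

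Markers of several cell types were higher in the same null arrays. A list of 16 genes of mucosal and secretory epithelium, chosen after values were seen, had positive differences in 14 of 16 at P90, and 3 passed, Reg3g (2.70 ± 0.45), Pigr (1.11 ± 0.19) and Cldn8 (0.78 ± 0.14). Its summed level was 81.9 to 90.5 in null and 72.6 to 77.0 in wild type, without overlap, and 3 of its members were below the guide for dim signal in wild type (Bpifb1, Muc5b and Foxj1) and 0 in null. Hair cell markers had positive differences in 10 of 12 (median 0.18) and summed levels of 44.9 to 47.8 in null and 42.1 to 43.7 in wild type, also without overlap. Of these, Ocm, the calcium buffer oncomodulin, passed narrowly (0.73 ± 0.15, adjusted p = 0.049). In wild type 5 of the 12 lay below the guide for dim signal (Pou4f3, Atoh1, Chrna9, Cdh23 and Ocm), and in null 3. Supporting cell markers were at 43.4 to 44.7 and 40.8 to 42.2, with 0 of 9 called. Of these 9, 5 had an unadjusted p of limma under 0.05, where 11.1% of all genes did, and Otol1 was below the guide in wild type. Melanocyte markers were higher in 6 of 6, at 24.5 to 26.0 and 23.5 to 23.6, with 0 called. Tyr and Tyrp1 were below the guide in wild type, and Tyr in null. Skeletal muscle markers were lower in 10 of 10, with overlapping sums and 0 called. Central glia markers had positive differences in 2 of 10 (median -0.125), also with overlapping sums and 0 called. What part these cell types had in the levels of Gabrp, Gabre or Glra3 was not tested. Markers of cerebellar and central neurons overlapped between the genotypes, with summed levels of 89.0 to 92.6 in null and 88.2 to 91.8 in wild type and 0 of 13 called. None of the 19 and 41 related genes of the GABA and glycine list and of the glutamate list passed between the genotypes at E18.5, P15, P90 or over the mean of the ages. An unadjusted p of limma under 0.05 was found for 3 and 9 of them at E18.5, where 12.5% of all genes had one. The counts were 2 and 0 at P15 (6.97% of all genes), 3 and 2 at P90 (11.1%) and 1 and 4 over the mean (7.68%).

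The starts of the 2 genes called at P90 are shown in the same way, because they carry the genotype difference.
Glra3, chr8:55940168-55940417, plus strand: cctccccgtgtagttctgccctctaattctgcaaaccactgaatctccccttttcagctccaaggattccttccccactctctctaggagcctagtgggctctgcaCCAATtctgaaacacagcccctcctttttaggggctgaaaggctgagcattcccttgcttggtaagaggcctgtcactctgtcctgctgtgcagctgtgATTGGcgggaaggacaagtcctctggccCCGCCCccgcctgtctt
Gabrp, chr11:33578958-33579207, minus strand: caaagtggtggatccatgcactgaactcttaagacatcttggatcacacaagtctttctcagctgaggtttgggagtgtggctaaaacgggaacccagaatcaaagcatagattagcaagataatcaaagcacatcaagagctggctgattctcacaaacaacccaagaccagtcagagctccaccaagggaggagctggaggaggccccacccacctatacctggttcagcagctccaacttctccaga
The Glra3 window had 4 CpG sites, 2 CCAAT matches and a GC box. The Gabrp window had 1 CpG site and none of the 6 motifs, which says only that these letters are not in this window.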

How the data were processed

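Total RNA was extracted with Trizol and 100 ng was amplified for Affymetrix Mouse Gene 1.1 ST arrays, per the labels' protocols. The authors deposited 1 table of values for 28853 probe sets in 18 arrays. They are log values. The sources used here do not give their base, summarization or background correction. The highest, 10.03, would be an intensity of 22700 with base e and 1050 with base 2. The deposited array medians ran from 3.88 to 4.82, so the arrays were quantile normalized, which removes a difference in distribution, real or technical. In the platform annotation 5443 probe sets had no entry, 1621 had several symbols and 21789 had 1, of which 21698 matched a RefSeq gene (GRCm38.p6). Only probe sets with 1 symbol were used, the brightest for each gene, without a filter on dim genes. Groups came from the sample titles, which the description field contradicts for wild type at P15 and P90.

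A mean per group was fitted over all 18 arrays and 19938 genes with limma 3.58.1 in R 4.3.3 (prior degrees of freedom 2.98), with Benjamini-Hochberg adjusted p over all genes and a threshold of 0.05. On simulated arrays, the P90 genotype fit recovered 33.5% of differences of 0.5 units, 87.5% of those of 1 and 99.5% of those of 2, and the wild-type E18.5 to P15 fit 38%, 84% and 100%. False calls were 0, 14 and 15 in the former fit and 1, 9 and 8 in the latter. The simulated noise was independent between arrays and genes, and few genes were changed. In the real E18.5 to P15 step 41.5% of genes passed, so these rates need not hold for the real arrays. Values in every array are printed for the genes called between genotypes, for the 3 smallest p in each direction of each genotype comparison and for the 5 largest called rises and falls of each wild-type age step. Names outside that rule illustrate a family. The receptor genes, related genes and marker lists were chosen with earlier results of these data known, and the epithelial list after its values were seen. Alternatives were the deposited values, array medians subtracted, dim genes left out, the mean of a gene's probe sets, array weights, an intensity trend with a robust prior, a sex score, a replicate block, only the arrays of 1 age and each array left out. A term for the 4 arrays of the third component, and leaving them out, were added after seeing the data.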

Additional observations from a re-analysis of the deposited data

Results flagged for a closer look

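Gabrp, the pi subunit of the GABA-A receptor, differed in its genotype effect between the ages. The difference between null and wild type was -0.55 ± 0.20 (SE) at E18.5, 0.18 ± 0.20 at P15 and 1.33 ± 0.20 at P90, and limma's F-test that the 3 are equal gave an adjusted p of 0.0314. The null arrays were lower than every wild-type array at E18.5, overlapped them at P15 and were higher than each of them at P90. The call was lost without any 1 of 8 arrays. The adjusted p was 0.0898, 0.0512 and 0.0771 without E18.5 wild type 1, 2 and 3, and 0.0581 and 0.0607 without P15 null 3 and P15 wild type 3. It was 0.0785 and 0.0626 without P90 null 1 and 2, and 0.0675 without P90 wild type 2. With a sex score as a covariate it was 0.133, and with a term for the 4 arrays of the third component 0.379. Of those 4, 2 are null arrays of E18.5 and 2 are wild-type arrays of P90, and their part in the Gabrp differences was not tested.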

How the results depend on the processing

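The counts of receptor genes called between genotypes at E18.5 and P15 were 0 under every setting run, and those of the E18.5 to P15 step stayed within 1.5 times the reported count (28 to 30 in wild type and 26 to 29 in null when 1 array was left out). At P90 the 2 calls between genotypes became 1 with dim genes left out and with only the 6 arrays of that age. They became 0 with a sex score, with a replicate block, with a term for the 4 arrays of the third component and with those arrays left out, where null 1 at E18.5 and wild type 3 at P90 were lone samples assumed to vary like the other groups. With 1 array left out they ran from 0 to 3. Over the mean of the ages, 1 gene (Glra3) passed with the values as deposited, with array medians subtracted, with array weights and with an intensity trend and robust prior, and leaving out 1 array gave 0 to 1. The 5 wild-type calls from P15 to P90 became 12 with the values as deposited, 8 with array medians subtracted, 8 with dim genes left out and 3 with the term or without the 4 arrays, and 3 to 8 when 1 array was left out. The 8 calls in null became 17 with the values as deposited, 16 with array weights and 5 to 8 when 1 array was left out. The 1 call of unequal genotype differences became 3 with array weights, 0 with the sex score, the replicate block, the term or without the 4 arrays, and 0 to 3 when 1 array was left out. Without the 4 arrays, Gabrr2 and Gabrg3 reversed at E18.5 (-0.12 and -0.17), as with the term (-0.040 and -0.087), and Gabrg3 ran from -0.0020 to 0.45 when 1 array was left out. The causes were not tested. By the rough guide, signal near background limits the 7 receptor genes below 3.39 in every group mean. With the guide from 1 array (2.185), 0 receptor genes lay below it in every group mean. Signal near background also limits contrasts in which a group mean lies below 3.39. Among these are Gabrp in P90 wild type (3.18), Gabre in P15 and P90 wild type (3.05 and 2.77) and Gabrr1 in every wild-type group. Same-numbered arrays of the 2 genotypes had correlations of -0.185 to 0.238, and several arrays correlated best with another number. The correlated values were deviations within groups of 3 arrays, so this cannot exclude pairing, which the main fit did not assume. The replicate block gave an adjusted p of 0.0666 for Glra3 and 0.0558 for Gabrp at P90, which does not describe a weaker effect.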
